A study of Mus musculus with 18 samples.

Results

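The genes described here are 10 chromatin remodelling genes of the mouse, 8 that encode alternative subunits of the BAF complex and 2 CHD remodellers, followed across 6 groups of 3 arrays. They were chosen by symbol: every probe set annotated to Smarca4, Smarca2, Smarcc1, Smarcc2, Smarcd1, Smarcd3, Arid1a, Arid1b, Chd1 or Chd7 was taken, and each gene was read from its probe set of highest mean. All 10 were measured, out of 19937 named genes; 9 have 1 probe set and Chd7 has 30. The arrays came from fibroblasts of CD1 mouse embryos (MEFs), from 3 induced pluripotent stem (iPS) clones made from such fibroblasts with retroviruses for Oct4, Klf4 and Sox2 (pMX vectors), and from J1, a mouse embryonic stem (ES) cell line. EOS3F-24 is labelled partial iPS and was profiled again once converted by 2i, which joins 2 μM of a MEK inhibitor and 12 μM of a GSK inhibitor in medium with LIF. EOS3F-28 and EOS3F-29 are labelled full iPS. The iPS clones and J1 cells were grown with LIF on arrested feeder cells, with 1 μg/mL puromycin for the iPS clones only; MEFs had no such culture. In comparisons with MEFs, these culture conditions and reprogramming cannot be told apart. Converted and partial cells are of 1 clone and differ in both the inhibitors and the conversion, which cannot be told apart either. The inhibitors are named for converted cells only, so these also differ in culture from the full lines and J1. The iPS clones differ from J1 in puromycin and in source. In those comparisons, too, culture and cell line cannot be told apart. Below, the 2i step means converted against partial cells. Each iPS line is 1 clone, and nothing in the labels says whether the 3 arrays of a group came from separate cultures, so p-values measure only the spread between arrays, which may be technical.

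BAF complexes, the SWI/SNF remodellers of mammals, use ATP to slide or evict nucleosomes, and most of their subunits come in alternative forms from paralogous genes. ES cells are known for a form called esBAF, built on the ATPase Brg1 (Smarca4) with BAF155 (Smarcc1), BAF60a (Smarcd1) and BAF250a (Arid1a), whereas differentiated cells also use Brm (Smarca2), BAF170 (Smarcc2), BAF60c (Smarcd3) and BAF250b (Arid1b). Chd1 and Chd7 are remodellers of another family, linked in ES cells to open chromatin and to enhancers. The first 4 genes with Chd1 and Chd7 are called ES-type below, and the other 4 somatic-type.

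The sequences just upstream of the annotated start sites of the 4 BAF genes with the widest range of group means are shown. The array values do not tell which start site the measured transcripts used. Each is the 250 bases before the start in RefSeq (GRCm38.p6), with every CG dinucleotide in capitals.
Smarca2, chr19:26604910-26605159, plus strand: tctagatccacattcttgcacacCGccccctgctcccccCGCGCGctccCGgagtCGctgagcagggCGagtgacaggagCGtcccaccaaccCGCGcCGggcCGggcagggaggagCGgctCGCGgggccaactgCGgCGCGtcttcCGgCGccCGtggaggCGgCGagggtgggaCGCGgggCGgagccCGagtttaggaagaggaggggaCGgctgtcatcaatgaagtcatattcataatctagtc
Smarcc2, chr10:128458986-128459235, plus strand: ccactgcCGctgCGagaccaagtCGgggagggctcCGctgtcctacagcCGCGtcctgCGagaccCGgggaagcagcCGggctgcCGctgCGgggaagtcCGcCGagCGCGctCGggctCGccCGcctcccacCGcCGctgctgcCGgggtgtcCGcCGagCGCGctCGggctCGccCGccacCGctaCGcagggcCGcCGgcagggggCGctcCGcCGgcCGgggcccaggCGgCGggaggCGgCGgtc
Smarcd1, chr15:99702037-99702286, plus strand: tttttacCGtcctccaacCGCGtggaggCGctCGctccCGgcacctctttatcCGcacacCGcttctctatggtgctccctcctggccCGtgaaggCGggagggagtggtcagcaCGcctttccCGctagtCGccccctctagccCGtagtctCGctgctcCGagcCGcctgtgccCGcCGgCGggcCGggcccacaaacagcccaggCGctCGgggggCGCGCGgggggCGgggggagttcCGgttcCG
Smarcd3, chr5:24602003-24602252, minus strand: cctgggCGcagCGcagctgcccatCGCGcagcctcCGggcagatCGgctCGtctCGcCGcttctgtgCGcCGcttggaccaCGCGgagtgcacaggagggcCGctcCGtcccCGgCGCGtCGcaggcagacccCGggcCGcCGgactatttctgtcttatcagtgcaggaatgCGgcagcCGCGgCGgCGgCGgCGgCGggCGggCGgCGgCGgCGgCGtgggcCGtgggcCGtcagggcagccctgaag
These 4 windows hold 28, 40, 29 and 38 CG dinucleotides in that order. Of the 10 genes, 8 had an entry, with 9 windows in all because Arid1a has 2. Their CG counts ran from 18 to 40 against a median of 6 over 32851 mouse promoters, of which 21.7% hold 18 or more. ES-type and somatic-type genes both had such windows: Smarca4 has 25, Smarcc1 21, Arid1b 37, and Arid1a 18 and 33. Of 12 motifs searched on both strands, 10 were in none of the 9 windows. A GC box, GGGCGG, was in 8 of the 9, all but that of Smarcc2, against 32.7% of all promoters. The 8 include both windows of Arid1a. That share is over promoters of any CG count, so the contrast was not made at like CG count. An ETS motif, CCGGAAG, was in the windows of Smarcc1 and Smarca2, against 6.91% of all promoters.

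The array values are on a log2 scale, made with RMA, and differences are between group means on that scale, with their SE. A gene is called when its adjusted p, by limma with Benjamini-Hochberg adjustment over all 19937 genes, is under 0.05. Array medians lay between 3.92 and 4.11 and the correlation over genes between replicates at 0.970 to 0.992. The mean level of 18 pluripotency markers ran from 3.72 to 3.83 over the MEF arrays, 5.03 to 5.28 in partial cells, 7.84 to 8.02 after 2i, 7.22 to 7.59 in the full lines and 7.86 to 8.10 in J1. Nanog, a core factor, averaged 3.42 in MEFs, 4.57 in partial cells and 9.17 after 2i. Esrrb, a factor of naive cells, averaged 3.41, 3.89 and 8.02 there, and Pou5f1, the Oct4 gene that the retrovirus also carries, 3.16, 10.96 and 9.64. The mean level of 24 fibroblast markers was 8.33 to 8.54 in MEFs, 6.41 to 7.57 in partial, 6.14 to 7.15 in 2i converted, 6.27 to 7.90 in full iPS and 6.18 to 7.07 in J1 arrays. No feeder-grown array lacked fibroblast transcripts, and Col1a2, a collagen gene, still averaged 8.18 to 9.29 there, while Thy1, a fibroblast surface protein, averaged 6.06 to 6.49 against 8.36 in MEFs. In each of the 5 feeder-grown groups, replicate 1 had the highest mean of these markers. In such bulk samples, fewer cells of a type and less RNA per cell cannot be told apart.

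In J1 ES cells, 3 of the 6 ES-type genes were higher than in MEFs and 3 of the 4 somatic-type genes were lower, with none called the other way. Over all genes, 20.6% were called higher and 17.5% lower. With genes of a mean under 5 left out as dim, 2247 of 7466 were called higher and 2353 lower, which are larger shares. That filter also drops Smarcd3 and Arid1b. The counts therefore do not show more calls among the listed genes than among genes of like level. The shares of all genes given below likewise include dim genes. Smarcd1, Chd7 and Smarcc1 were the higher ones, at 1.44, 0.85 and 0.53, and Smarcc2, Smarca2 and Arid1b the lower ones, at -1.08, -0.93 and -0.66. The full lines, taken as the mean of both, also had 3 ES-type genes higher and 3 somatic-type genes lower than MEFs (all genes: 17.1% and 17.8%). There Smarcd3 was called, at -0.50, and Smarca2, at -0.22, was not. Compared directly, full iPS and J1 did not differ by call in Smarcd3 (-0.32, limma, adjusted p = 0.0692). Smarca2 was called between them, with limits given below. Smarca4, Arid1a and Chd1 were not called against MEFs in J1 or in the full lines. The median difference from MEFs in J1 was 0.50 over the 6 ES-type genes and -0.80 over the 4 somatic-type genes, beside 0.06 over all genes.

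The partial line departed from both ends of this scheme. Against MEFs, Smarca4, Smarcc1 and Chd7 were higher, but so was the somatic-type Smarca2, and only Smarcd3 was lower, in all 4 higher and 1 lower of 10 (all genes: 13.7% and 10.0%). Against the full lines, 3 of 4 somatic-type genes were higher in partial cells, together with Smarca4, and Smarcd1 was lower (all genes: 12.8% higher and 5.78% lower). Against J1, the same count of somatic-type genes was higher, Smarca2, Smarcc2 and Arid1b, while Smarcd3 and Smarcd1 were lower (all genes: 13.3% and 9.65%). These comparisons share the partial arrays. The median over the 4 somatic-type genes was -0.30 against MEFs, 0.45 against full iPS and 0.57 against J1, beside 0.04, 0.01 and -0.03 over all genes.

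After 2i, 1 gene rose from the partial level and 4 fell (all genes: 9.36% and 13.0%). Smarcd1 rose by 0.85, and Smarca2, Chd7, Smarcc2 and Arid1b changed by -1.92, -0.84, -0.82 and -0.44. The converted cells stood against MEFs at 2 ES-type genes higher and all 4 somatic-type genes lower (all genes: 19.6% and 17.9%). Chd7 was not called there by the probe set used, while 27 of its 30 probe sets were called higher. The Smarca2 call there was lost without MEF replicate 3 (limma, adjusted p = 0.0779). Against the full lines 1 gene was called, Chd7, lower at -0.56 (all genes: 3.96% higher and 1.2% lower). Calls over all genes there and against J1 fell by more than 1.5 times without converted replicate 2 or 3, to 351 and 376 from 1029 and to 155 and 136 from 342. Against J1, limma called none of the 10, where 1.72% of all genes were called in either direction; 3 of the 10 had an unadjusted p under 0.05 (11.2% of all genes), and the trended robust limma fit also called none. The 3 with an unadjusted p under 0.05 were Smarcd3, Chd7 and Arid1a. They were at -0.34, -0.50 and -0.44 from J1 (limma, adjusted p = 0.171, 0.249 and 0.429). Smarcd1 was at -0.24 (adjusted p = 0.554).

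**Figure D1:**
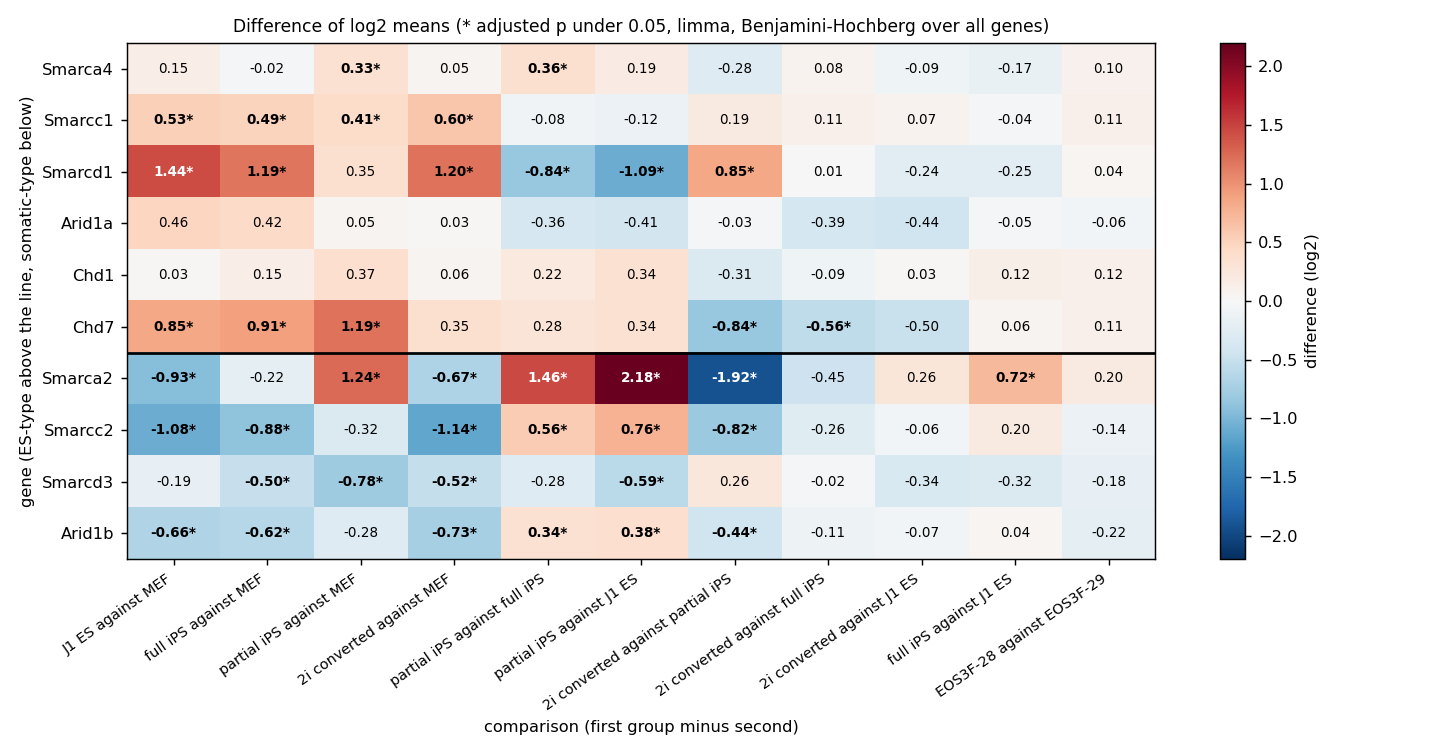
Differences of group means on the log2 scale for the 10 genes (rows) in the 11 comparisons (columns), with the called ones starred and in bold; ES-type genes stand above the line and somatic-type genes below. The partial columns show Smarca2 at 1.24 over MEFs, 1.46 over full iPS and 2.18 over J1, and the column of 2i converted against partial cells shows it at -1.92; comparisons that share a group are not independent.

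The ATPase pair differed more in its somatic-type member. Smarca2 (probe set 10462237) encodes Brm. It read 4.88, 5.17 and 5.44 in the 3 MEF arrays and 6.22, 6.58 and 6.41 in partial EOS3F-24. In 2i converted cells it read 4.63, 4.43 and 4.41, and in J1 4.49, 4.13 and 4.07. In the full lines it read 5.22, 4.93 and 4.98 in EOS3F-28 and 5.40, 4.37 and 4.77 in EOS3F-29. All 3 partial arrays were above each of the other 15, and every converted and J1 array was below every MEF array. The partial cells were higher than MEFs by 1.24 ± 0.20 (2.36-fold, adjusted p = 0.000203), than full iPS by 1.46 ± 0.18 (adjusted p = 1.11e-05) and than J1 by 2.18 ± 0.20 (4.52-fold, adjusted p = 4.52e-07). After 2i it fell by 1.92 on the log2 scale, with an SE of 0.20 (3.77-fold, adjusted p = 2.23e-06). The J1 and converted means, 4.23 and 4.49, lie near the array medians, so these folds rest on dim values. These 4 calls held in every alternative run on them, the centring on housekeeping levels included, where the excess over MEFs was 0.57.

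The order of Smarca2 below the partial line was less clear. MEF, EOS3F-28, EOS3F-29, converted and J1 arrays followed in that order of means (5.16 ± 0.28, 5.04 ± 0.16, 4.84 ± 0.52, 4.49 ± 0.12 and 4.23 ± 0.23; SD, n = 3 each), and each neighbouring pair overlapped. J1 cells were lower than MEFs by -0.93 ± 0.20 (adjusted p = 0.00133) and converted cells by -0.67 ± 0.20 (adjusted p = 0.0141), a call that ended without MEF replicate 3 (adjusted p = 0.0779). The full lines were higher than J1 by 0.72 ± 0.18 (adjusted p = 0.0256), the only 1 of the 10 genes called there (all genes: 1.29% higher and 3.47% lower). That call was lost without J1 replicate 2 (adjusted p = 0.105) and with EOS3F-28 set aside (0.155), as it was without J1 replicate 3 (0.167) or EOS3F-28 replicate 1 (0.0594). Smarca2 has the widest range of group means of the 10, 2.18, and 97.3% of all genes have a narrower one.

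Smarca4 (probe set 10583697), the Brg1 ATPase of esBAF, varied little. It read 6.96, 7.10 and 6.69 in MEFs, 7.19, 7.30 and 7.25 in partial cells, 6.89, 6.98 and 7.04 after 2i, 6.95, 6.95 and 6.92 in EOS3F-28, 6.96, 6.86 and 6.70 in EOS3F-29 and 6.98, 7.09 and 7.12 in J1. The partial arrays were the highest, above every array of the other groups. The partial cells were called higher than MEFs, by 0.33 ± 0.10 (adjusted p = 0.0264), and than full iPS, by 0.36 ± 0.09 (adjusted p = 0.00901). Cyclic loess between arrays ended both calls (adjusted p = 0.0846 and 0.0703), as did leaving out partial replicate 2 (0.0939 and 0.0561), and the first also ended without partial replicate 3 (0.0714) or MEF replicate 3 (0.159). J1 was at 0.15 ± 0.10 from MEFs (adjusted p = 0.304). Its range of group means, 0.41, was close to the median of all genes, 0.43.

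**Figure D2:**
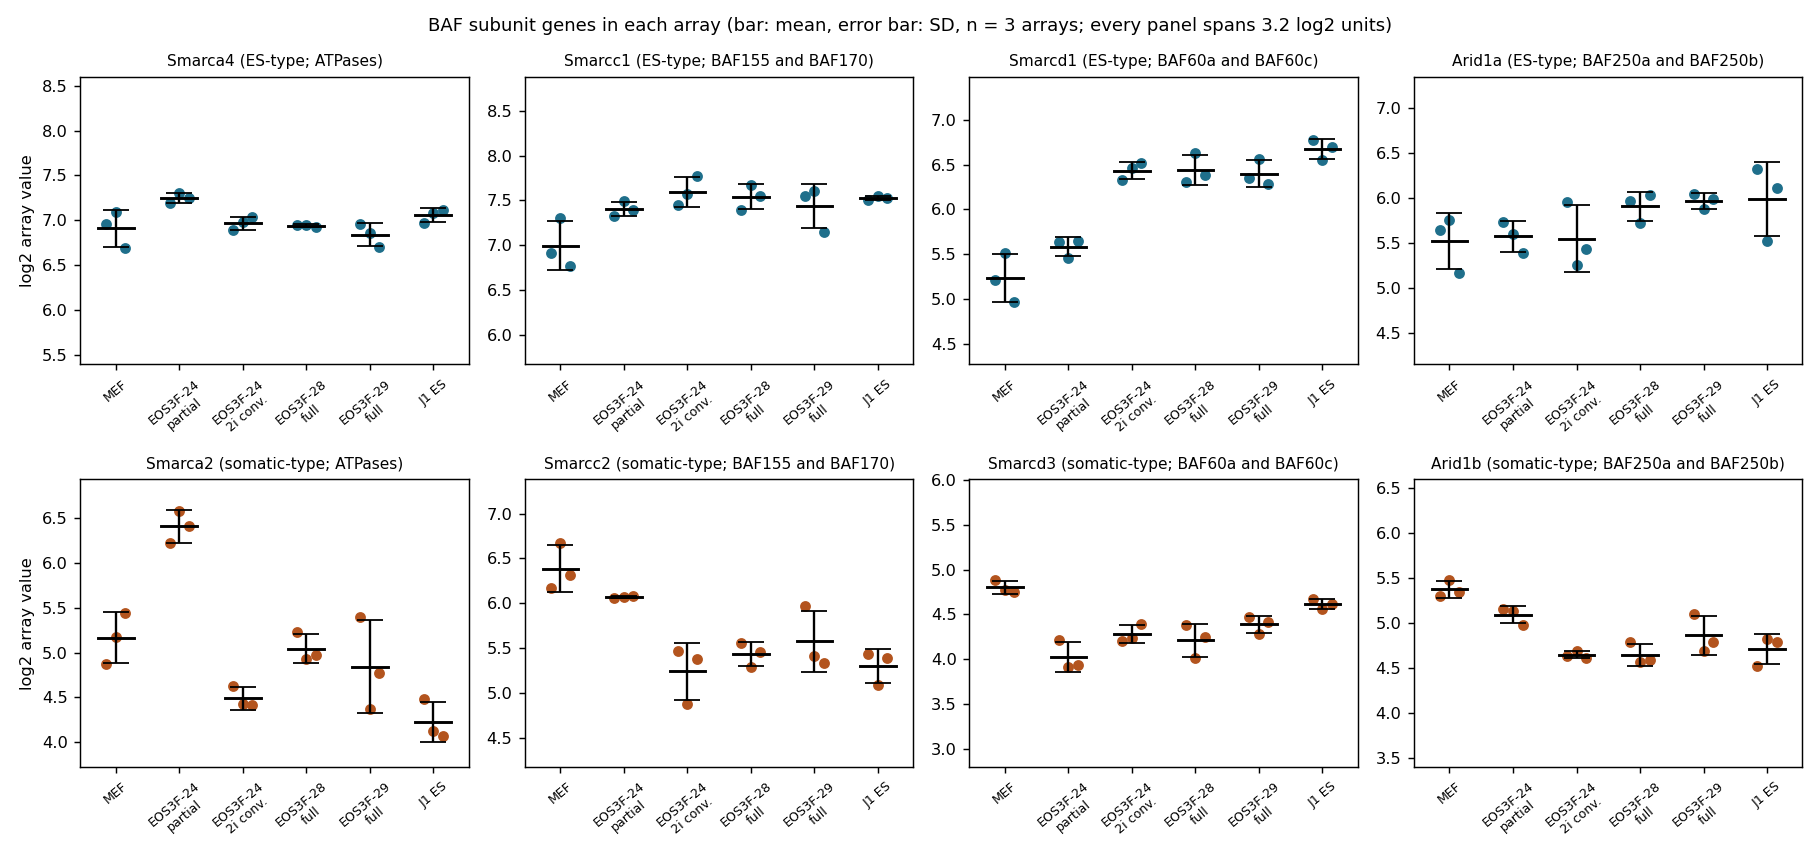
Log2 array values of the 8 BAF genes in each array by group (points), with the mean (bar) and SD (error bar, n = 3 arrays); ES-type genes are in the upper row, their somatic-type paralogs below, and each panel spans an equal length of the log2 scale around its own gene. Smarca2 stands at 6.22 to 6.58 in the partial line and at no more than 5.44 elsewhere, while Smarcd1 steps from 4.97 to 5.65 in MEF and partial arrays to 6.28 to 6.77 in the others.

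Smarcc1 and Smarcc2 encode BAF155 and BAF170, the paired scaffold subunits around which the complex assembles. Smarcc2 (probe set 10367349) read 6.17, 6.68 and 6.31 in MEFs and 6.05, 6.07 and 6.08 in partial cells. It read 5.47, 4.88 and 5.38 after 2i, 5.56, 5.30 and 5.46 in EOS3F-28, 5.97, 5.42 and 5.34 in EOS3F-29, and 5.44, 5.09 and 5.39 in J1. The MEF arrays were above the partial arrays, and these above all others, without overlap, whereas the 4 lower groups overlapped. Partial cells were at -0.32 ± 0.18 from MEFs, which was not called (adjusted p = 0.223). J1, full iPS and converted cells were lower than MEFs by -1.08 ± 0.18, -0.88 ± 0.15 and -1.14 ± 0.18 (adjusted p = 9.88e-05, 0.000204 and 5.96e-05). After 2i, Smarcc2 was at -0.82 ± 0.18 from the partial level (1.77-fold lower, adjusted p = 0.00231). Its higher level in partial than in full cells, 0.56 ± 0.15 (adjusted p = 0.0152), was not called without partial replicate 2 or 3 (adjusted p = 0.0586 and 0.0559) or once EOS3F-28 was set aside (0.0725).

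Smarcc1 (probe set 10589466) was higher than in MEFs in all 4 comparisons with them: 0.53 ± 0.14 in J1, 0.49 ± 0.12 in full iPS, 0.41 ± 0.14 in partial and 0.60 ± 0.14 in converted cells. The arrays read 6.92, 7.30 and 6.77 in MEFs, 7.33, 7.49 and 7.39 in partial, 7.45, 7.57 and 7.78 in converted, 7.40, 7.68 and 7.55 in EOS3F-28, 7.54, 7.61 and 7.15 in EOS3F-29, and 7.51, 7.55 and 7.52 in J1 cells. No difference was called among the 5 pluripotent or partial groups in the comparisons made, and EOS3F-29 replicate 3 fell within the MEF range. The partial call (adjusted p = 0.043) is the weakest of the 4: it was lost in 10 of 14 alternatives, among them cyclic loess (0.0634) and leaving out MEF replicate 1 (0.133) or 3 (0.201) or any 1 partial array (0.0572, 0.142 and 0.0952).

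Smarcd1 and Smarcd3 encode BAF60a and BAF60c, adaptor subunits that bind transcription factors. Smarcd1 (probe set 10426798) read 5.22, 5.51 and 4.97 in MEFs and 5.64, 5.46 and 5.65 in partial cells. It read 6.33, 6.46 and 6.51 after 2i, 6.31, 6.63 and 6.39 in EOS3F-28, 6.35, 6.57 and 6.28 in EOS3F-29 and 6.77, 6.55 and 6.69 in J1. The arrays formed 2 levels with no overlap between them, MEF and partial below and the other 4 groups above. The partial cells were at 0.35 ± 0.13 from MEFs, not called (adjusted p = 0.0622; called without MEF replicate 2, at 0.0109). The difference from MEFs was 1.44 ± 0.13 in J1 (2.71-fold, adjusted p = 2.07e-07), 1.19 ± 0.11 in full iPS (adjusted p = 3.63e-07) and 1.20 ± 0.13 after 2i (adjusted p = 1.57e-06). Smarcd1 was higher after 2i than in partial cells by 0.85 ± 0.13 (1.80-fold, adjusted p = 0.000113). After 2i it was 0.01 from the full lines, with a 95% interval of -0.22 to 0.25, and -0.24 from J1 (-0.51 to 0.04).

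Smarcd3 (probe set 10528664) was lowest in partial cells. It read 4.89, 4.77 and 4.75 in MEFs and 4.22, 3.92 and 3.94 in partial cells, then 4.21, 4.24 and 4.39 after 2i, 4.38, 4.01 and 4.25 in EOS3F-28, 4.47, 4.28 and 4.42 in EOS3F-29 and 4.68, 4.56 and 4.61 in J1. MEFs and then J1 were above the rest without overlap. Partial cells were lower than MEFs by -0.78 ± 0.11 (1.71-fold, adjusted p = 4.87e-05) and than J1 by -0.59 ± 0.11 (adjusted p = 0.000656). After 2i, Smarcd3 was at 0.26 ± 0.11 from the partial level (adjusted p = 0.113). This difference was called without partial replicate 1 (0.0419). Partial cells were at -0.28 ± 0.10 from full iPS (adjusted p = 0.0535), which was called in 6 of 18 alternatives, among them without partial replicate 1 (0.0198) and without replicate 2 of EOS3F-28 (0.0209) or EOS3F-29 (0.0479). Full iPS and converted cells were at -0.50 and -0.52 from MEFs, both called, and J1 at -0.19 (adjusted p = 0.207). These levels lie near the array medians, so Smarcd3 is a dim gene here.

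Arid1a and Arid1b encode BAF250a and BAF250b, the large DNA-binding subunits that define this class of BAF complex. Arid1b (probe set 10441400) read 5.30, 5.48 and 5.34 in MEFs, 5.15, 5.14 and 4.98 in partial cells and 4.64, 4.69 and 4.61 after 2i. In EOS3F-28 it read 4.79, 4.57 and 4.58, in EOS3F-29 5.11, 4.69 and 4.79, and in J1 4.52, 4.83 and 4.79. MEFs were above all other groups; the partial arrays lay between MEF and converted arrays and overlapped EOS3F-29. J1, full iPS and converted cells were lower than MEFs by -0.66 ± 0.12, -0.62 ± 0.10 and -0.73 ± 0.12 (adjusted p = 0.000205, 0.000108 and 8.33e-05), and partial cells were at -0.28 ± 0.12 (adjusted p = 0.0914). Arid1b changed by -0.44 ± 0.12 in the 2i step (1.36-fold lower, adjusted p = 0.00965). The partial excess over full iPS, 0.34 ± 0.10 (adjusted p = 0.0256), was lost in 10 of 18 alternatives, among them without partial replicate 1 or 2 (0.103 and 0.113) and without replicate 2 or 3 of EOS3F-28 (0.053 and 0.0513) or of EOS3F-29 (0.0586 and 0.0515). The call over J1, 0.38 ± 0.12 (adjusted p = 0.0258), was lost without J1 replicate 1 (0.119), partial replicate 1 (0.0847) or partial replicate 2 (0.0875).

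Arid1a (probe set 10517090) was called in none of the 11 comparisons. It read 5.64, 5.75 and 5.17 in MEFs, 5.73, 5.60 and 5.39 in partial cells, 5.96, 5.25 and 5.43 after 2i, 5.96, 5.72 and 6.03 in EOS3F-28, 6.04, 5.87 and 5.99 in EOS3F-29 and 6.32, 5.52 and 6.11 in J1. The groups overlapped except that each EOS3F-29 array was above each MEF and partial array. J1 and full iPS cells were at 0.46 ± 0.20 and 0.42 ± 0.18 from MEFs (adjusted p = 0.0821 and 0.0768). Without J1 replicate 2 the first was called (0.0107), and with cyclic loess the second (0.0494). After 2i it was 0.03 from MEFs and -0.44 from J1, with a 95% interval of -0.87 to -0.01 for the latter before adjustment.

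The balance within a pair was read in each array as the ES-type minus the somatic-type log2 value, relative to its mean in MEFs. A shift common to a whole array cancels in it. Each SD below is that of the group's own arrays and leaves out the spread of the MEF arrays. The MEF SD was 0.44 for Smarca4 and Smarca2, 0.15 for Smarcc1 and Smarcc2, 0.27 for Smarcd1 and Smarcd3 and 0.28 for Arid1a and Arid1b. In partial cells the Smarca4 to Smarca2 balance stood at -0.91 ± 0.13 (SD, n = 3), on the somatic side of MEFs, while the other 3 pairs had moved to the ES side: 0.73 ± 0.08 for Smarcc1 and Smarcc2, 1.13 ± 0.15 for Smarcd1 and Smarcd3 and 0.34 ± 0.08 for Arid1a and Arid1b. Without MEF replicate 3 this Arid1 balance was 0.18. Within those 3 pairs only Smarcc1 and Smarcd3 were called in partial cells against MEFs. The Smarcd1 and Smarcd3 shift came mostly from the dim Smarcd3, at -0.78, as Smarcd1 was at 0.35 and not called. In J1 the 4 balances were 1.08 ± 0.30, 1.62 ± 0.21, 1.62 ± 0.06 and 1.13 ± 0.55. All 4 were lower in every partial array than in every full iPS array, by -1.10, -0.64, -0.56 and -0.70 in that order of pairs. After 2i they were higher than in partial cells by 1.64 ± 0.13, 1.01 ± 0.21 and 0.59 ± 0.09 (SE) for the first 3 pairs, without overlap of arrays, and by 0.42 ± 0.23 for the Arid1 pair, whose arrays overlapped. Converted and full iPS arrays overlapped for every pair. The ATPase balance of the full lines stayed near that of MEFs, at 0.15 ± 0.15 in EOS3F-28 and 0.24 ± 0.47 in EOS3F-29, and without MEF replicate 3 it was -0.11 and -0.0087. Without MEF replicate 1 it was 0.31 and 0.41. That of converted cells, 0.73 ± 0.19, was 0.48 without MEF replicate 3. These balances describe the arrays and carry no test.

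**Figure D3:**
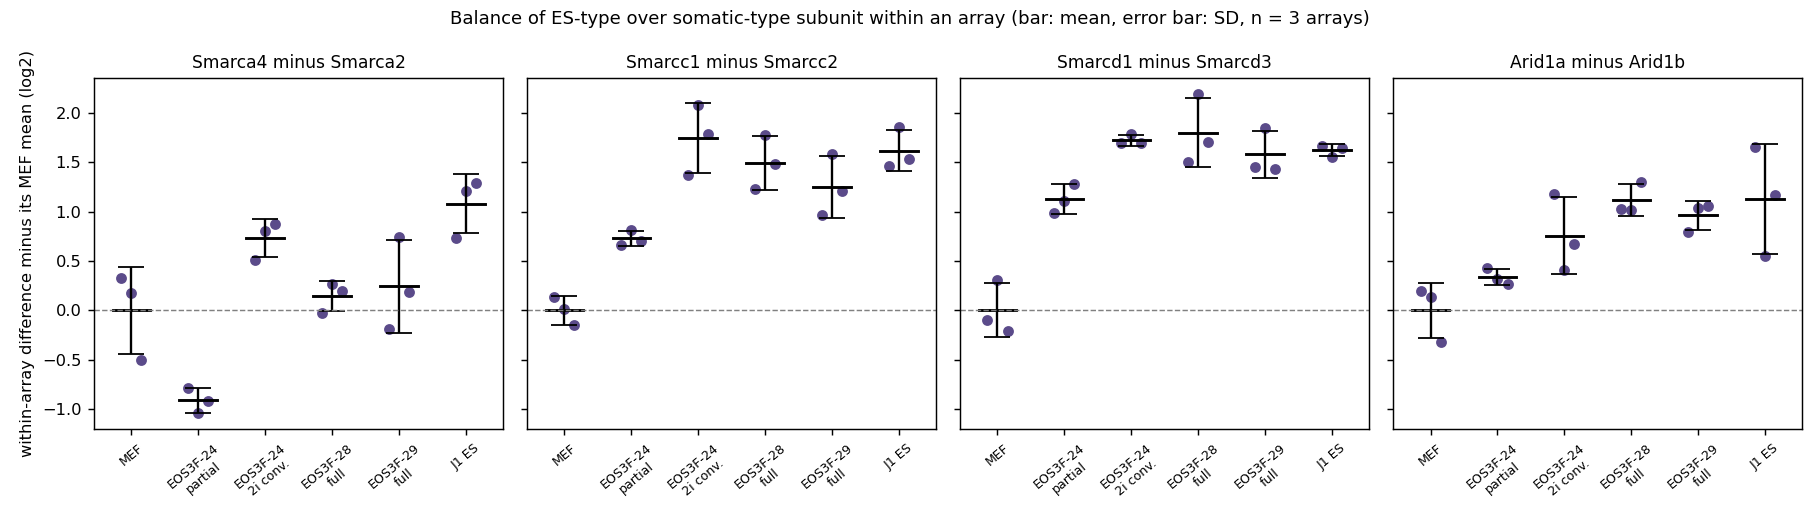
Within-array difference of the ES-type and the somatic-type gene of each pair (log2), minus its MEF mean, for each array (points) with mean and SD (n = 3). The partial arrays of the Smarca4 and Smarca2 panel lie at -1.03 to -0.78, below every other array there, and in the remaining panels they lie between the MEF and the full iPS arrays.

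Chd7, a remodeller found at active enhancers, was read by 30 probe sets, which share one gene. The probe set of highest mean (10503210) read 4.79, 5.54 and 4.97 in MEFs, 6.47, 6.45 and 5.94 in partial cells, 5.54, 5.44 and 5.38 after 2i, 6.22, 5.86 and 6.11 in EOS3F-28, 5.81, 6.09 and 5.96 in EOS3F-29 and from 5.68 to 6.16 in J1. The MEF arrays were below all partial, full iPS and J1 arrays and overlapped the converted ones. Partial cells were higher than MEFs by 1.19 ± 0.18 (2.28-fold, adjusted p = 0.000104), full iPS by 0.91 ± 0.16 and J1 by 0.85 ± 0.18, and converted cells were at 0.35 ± 0.18 (adjusted p = 0.148). After 2i, Chd7 was at -0.84 ± 0.18 from the partial level (adjusted p = 0.00245), beside a median of -0.54 over the 30 probe sets. In converted cells that median was 0.78 against MEFs and -0.17 against full iPS. All 30 probe sets averaged highest in partial cells and lowest in MEFs. Of them, 30 were called higher in partial cells and in full iPS than in MEFs, 28 in J1 and 27 in converted cells, where the probe set used was among the 3 not called; the mean over probe sets gave an adjusted p of 5.8e-05 there. All 30 averaged lower after 2i than before, 16 of them called. The call against the full lines, -0.56 ± 0.16 (adjusted p = 0.0494), was not made with the mean over probe sets (0.386). With every probe set tested, the one used was not called (0.08), while 2 others of the 30 were called lower. The call was lost without any 1 converted array (0.0714, 0.188 and 0.202). It was also lost without replicate 2 or 3 of EOS3F-29 (0.0777 and 0.0744) or 1 or 3 of EOS3F-28 (0.104 and 0.0937).

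**Figure D4:**
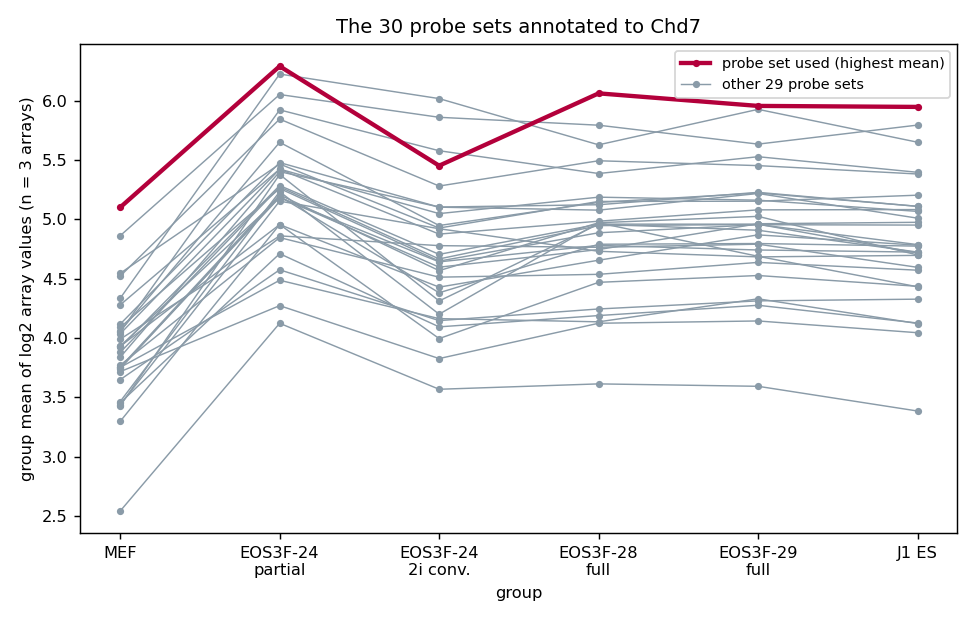
Group means of the log2 array values (n = 3 arrays) of the 30 probe sets annotated to Chd7, with the one used in red. Every line starts lowest in MEFs and peaks in the partial line, and the red line drops further after 2i than most of the others.

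Chd1 (probe set 10441987), which keeps ES cell chromatin open, was called in none of the 11 comparisons. It read 6.36, 6.71 and 6.16 in MEFs, 6.70, 6.83 and 6.82 in partial cells, 6.47, 6.29 and 6.66 after 2i, 6.68, 6.59 and 6.61 in EOS3F-28, 6.59, 6.72 and 6.21 in EOS3F-29 and 6.52, 6.41 and 6.40 in J1. The partial arrays were above every converted and J1 array and overlapped MEFs and EOS3F-29. The largest difference was 0.37 ± 0.14 between partial cells and MEFs (adjusted p = 0.0672), which was called without MEF replicate 2 (0.0124). Its range of group means, 0.37, is the narrowest of the 10.

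EOS3F-28 and EOS3F-29 did not differ by call in any of the 10 genes (limma; all genes: 0.532% in either direction), and none had an unadjusted p under 0.05 (10.9% of all genes) or was called by the trended robust fit. The differences ran from -0.22 for Arid1b to 0.20 for Smarca2. The 95% interval for Smarca2 was -0.23 to 0.63. EOS3F-29 replicate 1 was the highest of its group for Smarca2, Smarcc2, Smarcd3 and Arid1b, at 5.40, 5.97, 4.47 and 5.11, and its 24 fibroblast markers averaged 7.90, the highest of all feeder-grown arrays. In partial cells, replicate 1 had the most fibroblast signal (7.57 against 6.64 and 6.41) and the least Smarca2, 6.22.

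Fibroblast markers did not separate the partial line from the full lines: of 24, none was higher in partial cells and 1 was lower, with a median difference of 0.01. In the 2i step 1 of 24 was higher and none lower, at a median of -0.32. The part of feeder or residual fibroblast RNA in the fall of Smarcc2 and Arid1b after 2i was not tested. Smarca2 was highest in replicate 1 of the converted, EOS3F-28, EOS3F-29 and J1 groups, and the part of that RNA in those values was not tested either. Keratinocyte and epithelial markers differed between partial and full cells in both directions, 6 of 18 higher and 7 lower, and averaged 5.46 to 5.97 over partial, 4.78 to 5.18 over converted, 5.02 to 5.88 over full iPS and 3.84 to 4.55 over MEF arrays. Krt8, a simple-epithelium keratin, averaged 5.53 in partial cells, 5.13 after 2i and 4.41 in MEFs. Their part in the high Smarca2 of the partial line was not tested. Of 10 primitive endoderm markers 2 were higher and 1 lower in partial than in full cells, and of 7 neural markers 1 was higher. Over all genes, 12.8% were called higher and 5.78% lower there, and 9.36% and 13.0% in the 2i step. The endoderm and neural counts are small and lie near those shares.

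Beyond the paralog pairs, 22 other subunits of BAF family complexes were followed from a list of the family. In J1 against MEFs 6 were higher and 4 lower, in partial cells against MEFs 2 and 1, and after 2i against partial cells 2 and 5, with medians of 0.05, 0.10 and -0.02 beside 0.06, 0.04 and 0.00 over all genes. Of all genes, 20.6% and 17.5%, 13.7% and 10.0%, and 9.36% and 13.0% were called higher and lower there. Actl6a, which encodes the actin-like subunit BAF53a, was higher than in MEFs by 1.43 ± 0.17 in J1 and by 0.54 ± 0.17 in partial cells, and rose by a further 0.87 ± 0.17 after 2i (adjusted p = 0.00118). The partial call of Actl6a (adjusted p = 0.0295) was lost without partial replicate 1 or 3 or MEF replicate 1 or 3 (0.0659, 0.114, 0.121 and 0.135). Actl6b, its neuronal paralog BAF53b, was called in no comparison. Smarce1 (BAF57) was at -0.44 in J1 and 0.10 in partial cells against MEFs, and at -0.49 after 2i against partial cells. Its J1 call was lost without MEF replicate 2 (limma, adjusted p = 0.0612), and its 2i call without converted replicate 2 (0.0565). Brd9, a bromodomain subunit of the non-canonical complex that was picked after its values were seen, was at -0.90, -0.06 and -0.66 in the same 3 comparisons. Smarcd2 (BAF60b), the third BAF60 gene, was higher in partial cells than in MEFs and full iPS, by 0.40 and 0.42, and lower after 2i by -0.66. Smarcb1 (BAF47), a core subunit, was at 0.05 from MEFs in partial cells and 0.42 above full iPS, a call lost in 11 of 19 alternatives.

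**Figure D5:**
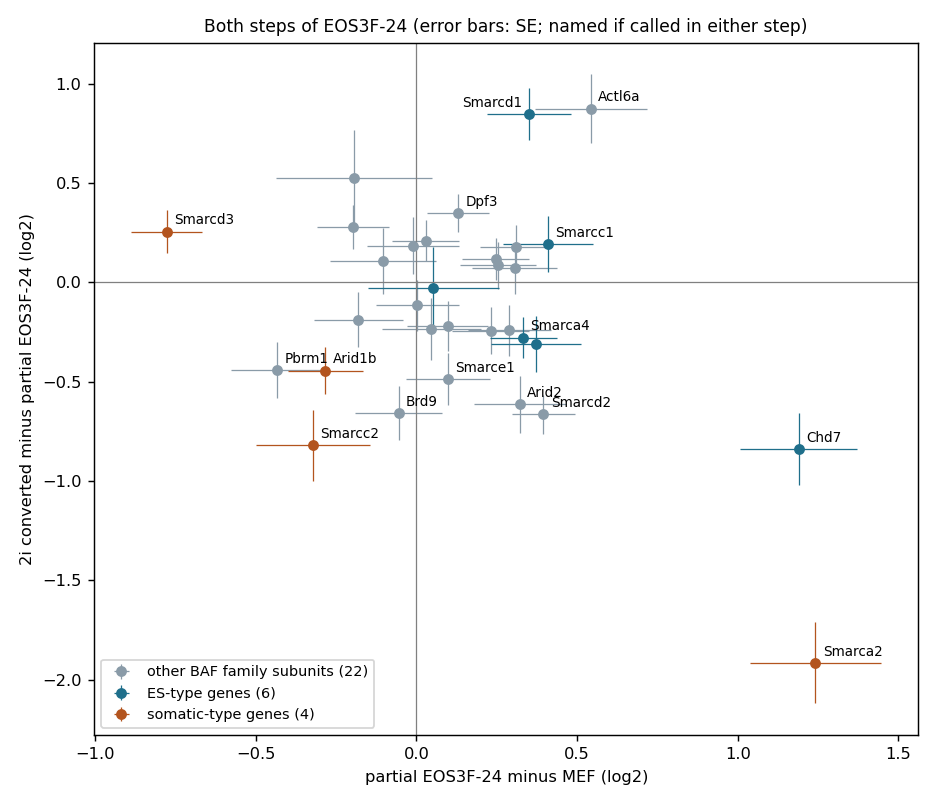
Difference of partial EOS3F-24 from MEFs (horizontal) and of 2i converted from partial EOS3F-24 (vertical), both log2, for the 10 genes and 22 other BAF family subunits, with SE bars; genes called in either step are named. Smarca2 and Chd7 lie at the lower right, high in partial cells and lower after 2i, and Smarcd1 and Actl6a at the top; both axes use the partial arrays, so the points tend to spread along a falling line even without change.

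Of 28 other CHD, ISWI and INO80 remodellers, 13 were higher and 3 lower in J1 than in MEFs, 9 and 2 in partial cells, and 8 and 3 after 2i against partial cells. The shares of all genes called higher and lower were 20.6% and 17.5%, 13.7% and 10.0%, and 9.36% and 13.0% in the same order. Hells, a helicase tied to DNA methylation, was 0.98 ± 0.21 above MEFs in partial cells and 1.33 ± 0.21 higher again after 2i. Cecr2, an ISWI partner, was at 0.38 (adjusted p = 0.137) and then rose by 1.22 ± 0.18. Smarca1, an ISWI ATPase, was lower than in MEFs in partial cells by -0.84 and higher after 2i by 1.36, and its paralog Smarca5 was at 0.37 (adjusted p = 0.0921) and then higher by 0.76. Smarcad1 and Baz2a were at 0.16 and 0.58, neither called, and rose by 0.90 and 0.67 after 2i; the last call was lost in 6 of 14 alternatives. Ruvbl1 and Ruvbl2, the paired helicases of INO80 complexes, were already up in partial cells by 0.92 and 1.04. Baz1a, an ISWI partner, was like Smarca2 highest in partial cells: 0.77 ± 0.19 above MEFs in partial cells, 1.58 ± 0.17 above full iPS and at -1.62 ± 0.19 after 2i. Chd3, a NuRD ATPase, was at -0.52 from MEFs in partial cells, a call lost without partial replicate 3 (adjusted p = 0.0996) or MEF replicate 2 (0.0683), and changed by a further -1.46 ± 0.16 after 2i. Chd5 was 1.08 higher in partial cells than in MEFs and at -0.42 after 2i (adjusted p = 0.211). Among 11 NuRD subunits, 3 were higher and 3 lower after 2i, and Mbd2, the methyl-CpG binding subunit, passed a 2-fold change at -1.34 ± 0.20; in partial cells it was -0.10 from MEFs.

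The genes whose values over the 18 arrays ran most like those of Smarcd1 and Smarca2, the 2 genes of widest range in each type, were taken from 7350 genes with a mean of at least 5, predicted and clone-named genes left out. For Smarcd1 the highest Pearson r were those of Kcnk5 (0.990), Terf1 (0.982), Orc1 (0.977), Lncenc1 (0.975) and Rest (0.974), and the lowest those of Chd3 (-0.944), Habp4 (-0.942) and Dtnbp1 (-0.940). Terf1 encodes a telomere binding protein, Orc1 a subunit of the replication origin complex and Rest a repressor of neuronal genes. For Smarca2 the highest were Cpped1 (0.970), Mgst1 (0.964), Cd47 (0.964), Dglucy (0.951) and Tmbim4 (0.946), and the lowest Dlc1 (-0.956), Atp1b1 (-0.955) and Cry2 (-0.944). Mgst1 averaged 5.88 in MEFs, 7.60 in partial and 5.07 in converted cells, and Dlc1 5.81, 4.28 and 6.50. The 18 points fall in 6 groups, so these values describe the groups' order and carry no p.

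The normalization of the arrays bears on small differences. A centring of each array on the median level of 23 housekeeping genes moved all genes together, by as much as -1.01 at the median in converted cells against MEFs. Of the 110 differences of the 10 genes, 17 changed sign there among those called before or after it. Relative to the shift of all genes the differences are equal by construction. Cyclic loess between arrays moved the split of calls over all genes. In partial cells against MEFs it went from 2722 higher and 1995 lower to 2181 and 2550, against full iPS from 2549 and 1153 to 1891 and 1555, in converted against full cells from 790 and 239 to 733 and 433, in full iPS against J1 from 258 and 691 to 455 and 584, and between the full lines from 60 and 46 to 86 and 43. With each array centred on the housekeeping genes' deviations from their own means, the split was 2755 and 3730 in converted cells against MEFs (from 3906 and 3561), 1723 and 1207 in partial against full cells, 1288 and 2861 in converted against partial cells (from 1866 and 2590), 316 and 599 in converted against full cells, 111 and 152 against J1 (from 212 and 130) and 298 and 338 in full iPS against J1. No called difference of the 10 genes changed sign under either of these settings.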

How the data were processed

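Expression was measured on 18 mouse whole-transcript arrays, 3 for each of 6 groups taken from the titles. The deposited values are log2 signals. The authors used RMA, per the submitters' processing notes, with a version not given in the sources used here. Of 34760 probe sets, 21640 carry 1 symbol, 1321 several and 11799 none; those with 1 symbol give 19937 genes, each read from its probe set of highest mean (954 have more than 1). limma 3.58.1 (R 4.3.3) fitted 1 mean per group over all 18 arrays, with 11 comparisons, Benjamini-Hochberg adjustment over all genes and a threshold of 0.05; the procedure was tested on simulated data. The number of arrays limits the precision. The 10 genes and all lists were chosen with earlier results of these data known. Named are the 10 genes, 5 further BAF subunits, other remodellers of the 3 lists called at 2-fold or more against MEFs, between partial and full cells or after 2i, 6 markers, and the genes of like and opposite pattern with a mean of at least 5, predicted and clone-named genes left out; Brd9 was added after its values were seen. The replicate numbers share no stated source. Deviations of same-numbered arrays correlated above 0.1 in every pair for partial cells against J1, converted against partial cells, converted cells against J1 and between the full lines. Every other comparison had a pair under 0.1. Replicates 1, 2 and 3 gave 0.63, 0.51 and -0.10 in converted against full cells. In full iPS against J1 they gave 0.61, 0.48 and -0.11. In comparisons with MEFs the values lay between -0.137 and 0.155. Alternatives were other scalings, filters, probe set rules, fits, a replicate block and leaving out each array. Promoters are from RefSeq tables; no genome was used here.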

Additional observations from a re-analysis of the deposited data

Results flagged for a closer look

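The change from MEFs differed between the partial and the full lines (limma) for 5 of the 10 genes, where 12.8% of all genes were called higher and 5.78% lower. The MEF mean cancels in this difference, so the values are those of the direct comparison of the groups already given, not further evidence. The count was 3 with deviation centring and 2 without partial replicate 2. Partial minus full iPS was 1.46 for Smarca2, 0.56 for Smarcc2, 0.36 for Smarca4 and 0.34 for Arid1b. It was -0.84 for Smarcd1 (-0.835 before rounding). The change of Smarca2 differed between full iPS and J1 by 0.72. The change of Chd7 differed between 2i converted and full cells by -0.56. Groups of 3 arrays were not tested for single arrays that stand apart.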

How the results depend on the processing

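Centring on housekeeping levels turned 17 differences. Against MEFs it gave Smarca4 -0.37 and Chd1 -0.49 in J1; Smarca4 -0.34, Smarcc1 -0.27, Smarcd1 -0.33 and Arid1a -0.62 in partial cells; Smarca4 -0.99, Smarcc1 -0.44, Arid1a -1.02, Chd1 -0.98 and Chd7 -0.69 in converted cells. It gave Arid1b -0.0001 in partial against full cells; Smarca4 -0.63, Smarcc1 -0.59 and Smarcd1 -0.69 in converted against full cells; Smarcc1 -0.46 and Chd1 -0.50 in converted cells against J1. This shift is common to all genes of a comparison by construction. None of the 1718 other alternative values reversed a called difference. The number of the 10 genes called in partial cells against MEFs, 5, was 8 with that centring, 3 with deviation centring (chosen after seeing the data), the trended robust fit or only the arrays compared, and 3 to 7 with 1 array left out. It was 3 with deviation centring in partial against full cells, and 2 to 5 with 1 array left out, lowest without partial replicate 2. In partial cells against J1 it was 3 with dim genes left out, which drops Smarcd3 and Arid1b from the test. In converted against full cells, where Chd7 alone was called, it was 10 with level centring, 2 with deviation centring, 0 with the mean of probe sets, every probe set tested or either full line alone, and 0 to 1 with 1 array left out. In converted cells against J1 it was 9 with level centring. In full iPS against J1 it was 2 with the replicate block or EOS3F-28 alone, 0 with only the arrays compared or EOS3F-29 alone, and 0 to 1 with 1 array left out. The replicate block also gave calls for Arid1a in J1 and full cells against MEFs (adjusted p = 0.0357 and 0.0317, limma). The same block called Smarcd3 in partial against full cells (0.0311). In these comparisons not every same-numbered pair correlated above 0.1, with 0.435, 0.352 and 0.067 in partial against full cells. The block changed the call of no other of the 10 genes but Smarcd3 in full iPS against J1 (0.0332). The cause of the other changes was not tested. Over all genes, calls in partial cells against MEFs went from 4717 to 16380 with level centring and 2811 with dim genes left out (7466 tested). In J1 and converted cells against MEFs they went from 7585 and 7467 to 12609 and 18267 with level centring, and to 4600 and 4628 without dim genes, and in full cells from 6968 to 4306. In partial against full cells, partial cells against J1 and converted against partial cells, 3702, 4571 and 4456 became 2274, 2866 and 2897 without dim genes, and the first and last 8497 and 7998 with level centring. In converted against full cells and J1, 1029 and 342 became 18615 and 16101 with level centring and 1572 and 543 with the block. In full iPS against J1 and between the full lines, 949 and 106 became 1596 and 197 with the block, and 520 and 46 with only the arrays compared. With 1 array left out, calls fell to as few as 351 in converted against full cells (without converted replicate 2; 376 without replicate 3), 133 in converted cells against J1 (without J1 replicate 3; 136 and 155 without converted replicate 3 or 2, 223 without J1 replicate 2), 303 in full iPS against J1 (without J1 replicate 3), 2380 in partial against full cells (without partial replicate 2) and 43 between the full lines (without EOS3F-28 replicate 2 or 3). Signal near the array medians limits Smarcd3, Arid1b and, in J1 and converted cells, Smarca2.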
